A study of Homo sapiens with 6 samples.

Results

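Messenger RNAs of 3 families of splicing genes were followed in DLD-1, an established line of human colorectal cancer cells, after an siRNA against the long non-coding RNA lncSLCC1. The members were chosen by name alone: 12 SR proteins (SRSF followed by a number), 22 hnRNPs (symbols that start with HNRNP, leaving out pseudogene-type symbols that end in P and a number) and the 4 CLK kinases. That gave 38 of the 56638 gene symbols listed in the count tables, of which 36 had enough reads to be tested. HNRNPCL1 had 0 reads in every library and SRSF12 had 0 to 1.

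DLD-1 cells grown in RPMI-1640 with fetal bovine serum were transfected with a control siRNA (3 libraries) or with the lncSLCC1 siRNA (3 libraries), and total RNA was sequenced. Both groups are the same line and differ, per the labels, only in the siRNA. Separate cultures are not stated for the replicates. The p-values therefore measure only the spread among the 6 libraries, and that spread may be technical. The comparison addresses which RNAs differ in level between the lncSLCC1 siRNA and the control siRNA. The labels name no other siRNA against lncSLCC1. Effects of the siRNA on other RNAs therefore cannot be told apart from those of losing lncSLCC1.

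SR proteins carry RNA recognition motifs and a tail rich in arginine and serine. They bind exons and recruit the spliceosome to nearby splice sites. hnRNPs coat nascent transcripts and often act against exon inclusion, so the relative amount of SR proteins and hnRNPs helps to set which exons are kept. CLK kinases phosphorylate the tails of SR proteins in the nucleus and release them from nuclear speckles. Many SR protein genes can include a poison exon, which introduces an early stop codon and sends the transcript to nonsense-mediated decay. In cancer cells the proteins of HNRNPA1, HNRNPA2B1 and PTBP1 are known for repressing an exon of the pyruvate kinase gene PKM, which links the family to glycolysis. Counts per gene symbol do not separate such splice forms.

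Some members share sequence with processed pseudogenes, and the tables hold 128 pseudogene-type rows of these families. Of them, 7 had at least 100 reads per library on average, and 5 of these 7 belong to HNRNPA1, HNRNPA3 and HNRNPC. Over whole transcripts in GENCODE release 29 (GRCh38), 76.6% of all 50-base words of HNRNPA3P6 and 33.8% of those of HNRNPA3P5 were also in HNRNPA3, and HNRNPA1 held 72.8% of those of HNRNPA1P10 and 45.5% of those of HNRNPA1P48. Reads that the counting program HTSeq set aside as aligned to more than 1 place made up 12.8% to 13.8% of each library's total and are in no gene row. How many of them came from such words is not known here. Among SR proteins, SRSF2, SRSF4, SRSF7 and SRSF9 shared 0.0% of their words with another gene, as did HNRNPF, HNRNPH3 and HNRNPA2B1.

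Reads assigned to genes numbered 12572277 to 15568075 per library, and tested members had 245 to 28994 reads each. RP11-400N13.2, the symbol taken here for lncSLCC1, fell to 27.1% of its control level (log2 fold change -1.88 with SE 0.264, edgeR adjusted p = 0.0027). Of 10 colorectal epithelial markers 8 were expressed enough to be tested, while CDX1 and CEACAM5 had 1 to 13 reads per library. VIL1 from this list rose to 183% of its control mean (edgeR adjusted p = 0.0062). Markers of leukocytes, endothelium, fibroblasts and hepatocytes summed to 7.68 to 10.5 CPM (read counts scaled to TMM library size) per library against 5080 to 6265 CPM for the epithelial list, with PECAM1 and DCN at 0 reads. KRT8 alone held 3201 to 4323 CPM of the epithelial sum. Of the 14 markers of other cell types 5 had enough reads to be tested. Among them ACTA2 had 35 to 57 reads per library, against 16 to 41 for LGALS4, a tested epithelial marker. PDGFRB from the list of other cell types rose to 247% of its control mean on 6 to 24 reads per library (edgeR adjusted p = 0.0448). The part of either marker change in the results below was not tested. The controls were more scattered than the lncSLCC1 siRNA libraries, and control replicate 1 stood apart. A chi-square statistic per gene was 15.9 and 28.0 between control replicate 1 and the other two, 5.46 between those, and 1.79 to 1.90 between lncSLCC1 siRNA libraries. Over the 36 tested members the median coefficient of variation was 8.09% among controls and 2.09% among lncSLCC1 siRNA libraries. Over all tested genes it was 13.6% and 5.92%. Shares over all tested genes, given below, were not matched to the members in level or spread.

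The SR protein family held 5 falls and 0 rises among its 11 tested members, whereas 13.8% of the 15242 genes tested were called, 7.39% lower and 6.46% higher. A call is an adjusted p under 0.05 in edgeR's quasi-likelihood test over all genes. SRSF7, SRSF2, SRSF6, SRSF5 and SRSF4 fell, to between 72.0% and 80.3% of their control means. The median log2 fold change was -0.25 for the family and 0.0072 for all tested genes, and 9 of the 11 values were negative. At an unadjusted p under 0.05 there were 7 SR proteins, all lower, against 31.6% of all tested genes in either direction and 16.3% lower. DESeq2 and limma-voom also called 0 higher. The lncSLCC1 siRNA libraries lay below all controls for 7 of the 11 SR proteins, a pattern seen in 19.6% of all tested genes (39.0% had groups that did not overlap in either direction). CPM values are shares of the sequenced RNA, so that fewer cells with a transcript and less of it per cell cannot be told apart.

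SRSF7, an SR protein with a zinc knuckle that also acts in mRNA export, stood at 383, 344 and 322 CPM in the controls, listed here and throughout as replicates 1 to 3, and at 256, 249 and 251 CPM after lncSLCC1 siRNA. The groups did not overlap, and the lowest control was above the highest lncSLCC1 siRNA library. The mean fell from 350 ± 31.1 to 252 ± 3.89 CPM (SD over 3 libraries each), with a log2 fold change of -0.47 with SE 0.082 and 95% interval -0.66 to -0.29 (edgeR adjusted p = 0.0071).

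SRSF2, also called SC35 and known as a marker of nuclear speckles, stood at 243, 224 and 208 CPM in controls and at 161, 161 and 168 CPM after lncSLCC1 siRNA. Every lncSLCC1 siRNA library lay below every control. The mean fell from 225 ± 17.7 to 163 ± 4.14 CPM (SD over 3 libraries each), a log2 fold change of -0.46 with SE 0.081 and 95% interval -0.64 to -0.28, edgeR adjusted p = 0.0074. In GENCODE release 29, 36.7% of the annotated exonic bases of SRSF2 overlap exons of MFSD11, mostly on the opposite strand. No strand setting of the counting is known here. MFSD11 had 180 to 221 reads per library and was not called (log2 fold change -0.038 with SE 0.132, edgeR adjusted p = 0.872).

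SRSF6, SRSF5 and SRSF4 are closely related SR proteins with a pair of RNA recognition motifs each. SRSF6 stood at 238, 264 and 267 CPM in controls and at 209, 200 and 199 CPM after lncSLCC1 siRNA (log2 fold change -0.34 with SE 0.077, edgeR adjusted p = 0.0196). SRSF5 stood at 331, 294 and 277 CPM in controls and at 242, 230 and 242 CPM after lncSLCC1 siRNA (log2 fold change -0.34 with SE 0.084, edgeR adjusted p = 0.029). All 3 controls were above all 3 lncSLCC1 siRNA libraries for both genes, with control replicate 1 the lowest control for SRSF6 and the highest for SRSF5. SRSF4 stood at 210, 179 and 172 CPM in controls and at 153, 145 and 152 CPM after lncSLCC1 siRNA (log2 fold change -0.32 with SE 0.090, edgeR adjusted p = 0.045). Its groups did not overlap either, and its adjusted p was close to the threshold. With library totals in place of TMM, SRSF6 (0.0503) and SRSF4 (0.0625) lost their calls by edgeR adjusted p.

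**Figure D1:**
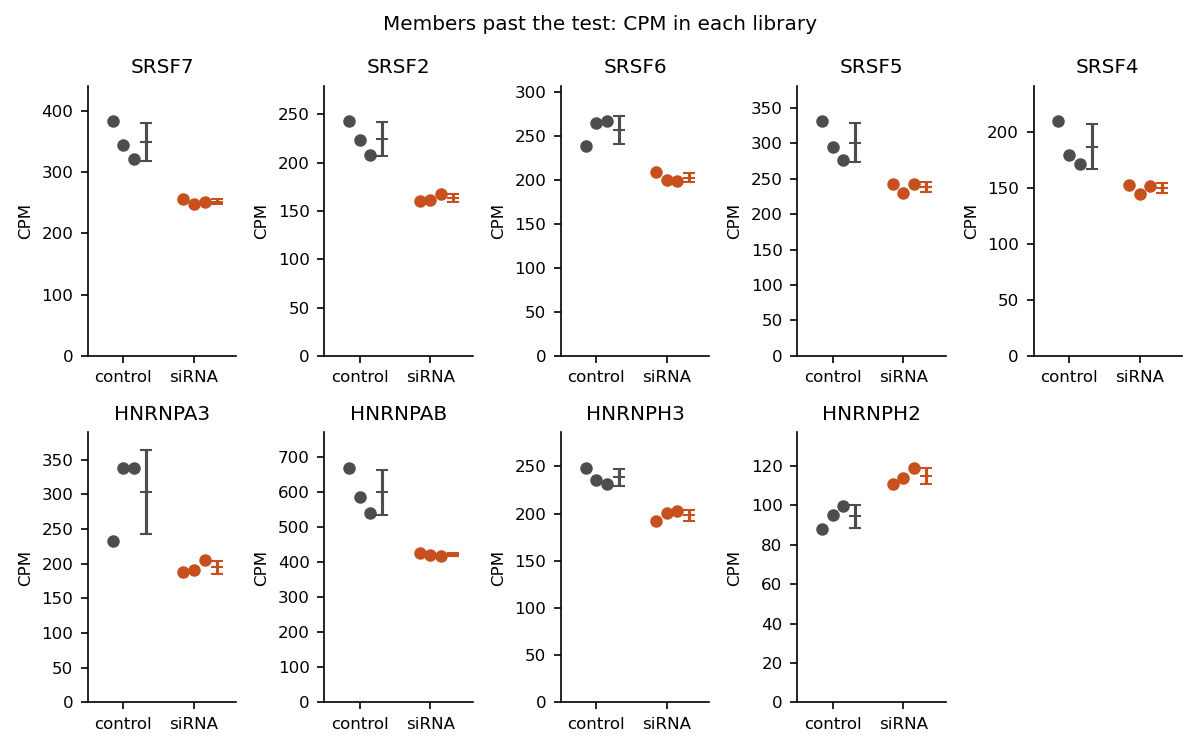
CPM (vertical axis, from 0) of the 9 members past the test in each control siRNA (grey) and lncSLCC1 siRNA (orange, marked siRNA) library, replicates 1 to 3 from left to right, with mean and SD beside the points. For SRSF7, SRSF2, SRSF6, SRSF5, SRSF4, HNRNPA3, HNRNPAB and HNRNPH3 the orange points lie below all grey points, and for HNRNPH2 above them.

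SRSF1 and SRSF3 had the same sign and missed the threshold. SRSF1, the founding SR protein and a known proto-oncogene, stood at 398, 449 and 469 CPM in controls and at 374, 364 and 373 CPM after lncSLCC1 siRNA (log2 fold change -0.25 with SE 0.080, edgeR adjusted p = 0.0688). SRSF3, the smallest SR protein, stood at 469, 515 and 485 CPM in controls and at 412, 408 and 424 CPM after lncSLCC1 siRNA (log2 fold change -0.24 with SE 0.072, edgeR adjusted p = 0.0527). Neither gene had overlapping groups. Both passed the test without control replicate 1, at log2 fold changes of -0.31 for SRSF1 (adjusted p = 6.03e-05) and -0.27 for SRSF3 (adjusted p = 0.000294), both by edgeR. The share of all genes called lower then went from 7.39% to 15.5%. With any other library left out SRSF1 was not called (edgeR adjusted p between 0.091 and 0.247). SRSF3 was called without control replicate 3 (edgeR adjusted p = 0.0385) but in none of the remaining omissions (0.166 to 0.223). In GENCODE release 29, 56.6% of the annotated exonic bases of SRSF1 lie in exons of AC015813.2 on the same strand.

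The other 4 tested SR proteins had overlapping groups. SRSF9, which had the highest control level of the family per length of longest transcript (208 RPKM, reads per kilobase scaled by library size), stood at 278, 249 and 223 CPM in controls and at 237, 216 and 239 CPM after lncSLCC1 siRNA. It changed by -0.11 on the log2 scale with SE 0.094 and 95% interval -0.32 to 0.10, and its sign turned with GC content and length offsets (0.0078). Exons of GATC on the opposite strand overlap 46.2% of its exonic bases, and GATC fell (log2 fold change -0.40 with SE 0.093, edgeR adjusted p = 0.0219); its part in the SRSF9 value was not tested. On the same per-length scale SRSF1 and SRSF7 followed in controls at 141 RPKM each. SRSF10 and SRSF11, SR-like proteins of divergent function, had log2 fold changes of -0.033 and 0.055, with confidence intervals of -0.33 to 0.27 and -0.17 to 0.28. In both genes control replicate 1 lay below the other controls, at 161 against 219 and 246 CPM for SRSF10 and at 185 against 235 and 239 CPM for SRSF11. Without that library SRSF10 was called lower (-0.19, edgeR adjusted p = 0.0173) and SRSF11 changed sign (-0.056). Leaving out control replicate 3 instead gave SRSF10 a positive value of 0.099. SRSF8, a retrogene copy of the SRSF2 type, ranged from 61.4 to 65.1 CPM over all 6 libraries, with a log2 fold change of 0.011 and 95% interval of -0.17 to 0.19.

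Among 21 tested hnRNPs, 3 fell, 1 rose and 17 did not pass the test, against 7.39% of all tested genes lower and 6.46% higher. The falls were HNRNPA3, HNRNPAB and HNRNPH3, and the rise was HNRNPH2. The median log2 fold change of the family was -0.12 against 0.0072 for all tested genes, with 17 values negative and 4 positive. The lncSLCC1 siRNA libraries lay below all controls for 12 hnRNPs and above them for 1, against 19.6% and 19.4% of all tested genes.

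HNRNPA3, a protein of the A/B group that binds the RNA trafficking element of transported mRNAs, fell to 64.2% of its control mean. It stood at 233, 338 and 339 CPM in controls and at 188, 191 and 206 CPM after lncSLCC1 siRNA. Control replicate 1 lay between the other controls and the lncSLCC1 siRNA libraries, which did not reach any control. The log2 fold change was -0.64 with SE 0.133 and 95% interval -0.94 to -0.34 (edgeR adjusted p = 0.0144). Both of its pseudogene rows with at least 100 reads per library fell too. HNRNPA3P6 stood at 288, 288 and 312 CPM in controls and at 172, 167 and 162 CPM after lncSLCC1 siRNA (log2 fold change -0.82 with SE 0.074, edgeR adjusted p = 0.000297). HNRNPA3P5 stood at 103, 86.9 and 78.9 CPM in controls and at 47.0, 41.1 and 41.8 CPM after lncSLCC1 siRNA (log2 fold change -1.05 with SE 0.113, edgeR adjusted p = 0.000608). Control replicate 1 was the highest control for HNRNPA3P5 and the lowest for HNRNPA3. The parent row took 37.4% of the summed HNRNPA3 and pseudogene reads in control replicate 1 and 46.1% to 50.1% in the other libraries. With all pseudogene reads of the name added, HNRNPA3 fell from 690 ± 57.4 to 406 ± 5.12 CPM (SD over 3 libraries each), a log2 fold change of -0.76 with SE 0.081 and 95% interval -0.95 to -0.58, edgeR adjusted p = 0.000581, to 58.9% of the control level. That sum was chosen after seeing the data. It passed the test with each of the 6 libraries left out in turn, at log2 fold changes of -0.83 to -0.72 with edgeR adjusted p between 1.56e-11 and 0.0108. The call of the parent row alone was lost when control replicate 2 was left out (adjusted p = 0.0782) or lncSLCC1 siRNA replicate 1, 2 or 3 (0.0718, 0.0786 and 0.0627).

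HNRNPA1, the most studied hnRNP and a repressor of many exons, showed no difference past the test in its own row or in the sum. Its row stood at 150, 197 and 189 CPM in controls and at 182, 191 and 193 CPM after lncSLCC1 siRNA (log2 fold change 0.079 with SE 0.104, edgeR adjusted p = 0.64). Control replicate 1 was again the low one. HNRNPA1P48 stood at 430, 343 and 345 CPM in controls and at 363, 349 and 362 CPM after lncSLCC1 siRNA, and HNRNPA1P10 ranged from 182 to 230 CPM, with control replicate 1 the highest library for both. The parent row held 18.2% of the summed reads in control replicate 1 and 24.3% to 26.8% in the other 5 libraries. With pseudogene reads added, the gene stood at 762 ± 50.7 CPM in controls and at 744 ± 8.53 CPM in the other group (SD over 3 libraries each; log2 fold change -0.035 with 95% interval -0.20 to 0.13, edgeR adjusted p = 0.782). Adding these reads, or leaving out control replicate 1 (-0.034), turned the sign of its fold change. HNRNPA1L2, an intronless copy, shared 58.5% of its 50-base words with other genes and was not called (-0.15 on the log2 scale, SE 0.143); its sign turned without control replicate 1 (0.015).

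**Figure D2:**
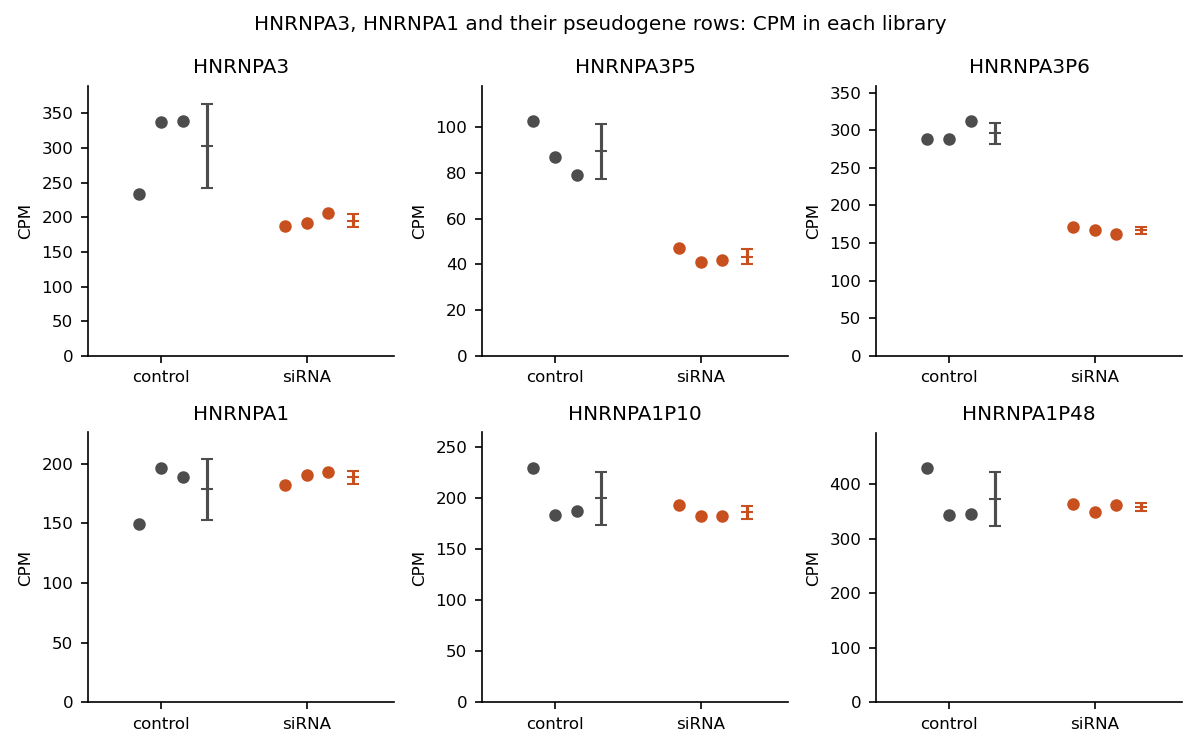
CPM (vertical axis, from 0) of HNRNPA3 and HNRNPA1 beside pseudogene rows that share their sequence, in each control siRNA (grey) and lncSLCC1 siRNA (orange, marked siRNA) library, replicates 1 to 3 from left to right, with mean and SD. The 3 HNRNPA3 rows separate the groups, while those of HNRNPA1 overlap.

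HNRNPAB, an A/B-type protein that also binds DNA and acts in transcription, fell to 70.4% of its control mean. It stood at 669, 585 and 541 CPM in controls and at 426, 421 and 417 CPM after lncSLCC1 siRNA. The lncSLCC1 siRNA libraries were within a few CPM of each other and far below the lowest control. The log2 fold change was -0.51 with SE 0.088 and 95% interval -0.70 to -0.31 (edgeR adjusted p = 0.0072). Only 1.5% of its 50-base words occurred in another gene. Per length of longest transcript it had the second highest row among hnRNPs in controls, at 333 RPKM, after HNRNPA2B1 at 498 and ahead of HNRNPK at 318. This order leaves out pseudogene reads, and the HNRNPA1 row held only 18.2% to 26.8% of its summed reads. It is therefore not a ranking of the RNAs themselves.

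The HNRNPH and HNRNPF genes encode related proteins that bind runs of guanines. HNRNPH3 stood at 249, 236 and 231 CPM in controls and at 192, 201 and 203 CPM after lncSLCC1 siRNA (log2 fold change -0.27 with SE 0.072, edgeR adjusted p = 0.0385). HNRNPH2, which lies on the X chromosome, stood at 88.2, 95.3 and 99.7 CPM in controls and at 111, 114 and 119 CPM after lncSLCC1 siRNA (log2 fold change 0.28 with SE 0.082 and 95% interval 0.10 to 0.46, edgeR adjusted p = 0.0475). HNRNPH2 was the 1 riser among the 36 tested members, with all lncSLCC1 siRNA libraries above all controls. Its call was lost without the low-count filter (edgeR adjusted p = 0.0508), and that of HNRNPH3 with library totals (0.0633). Its exons overlap those of the read-through gene RPL36A-HNRNPH2 over 16.3% of their bases, and that gene was listed at 0 reads in every library. HNRNPF stood at 801, 722 and 734 CPM in controls and at 649, 638 and 646 CPM after lncSLCC1 siRNA, and HNRNPH1 at 840, 816 and 871 CPM and at 743, 733 and 728 CPM. Their groups did not overlap, but their log2 fold changes of -0.22 (SE 0.074) and -0.20 (SE 0.070) missed the threshold (adjusted p = 0.0694 and 0.086 by edgeR). Whether HNRNPH2 and its relatives differ in response was not tested.

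HNRNPA0, an intronless A-type gene, stood at 335, 326 and 291 CPM in controls and at 286, 269 and 267 CPM after lncSLCC1 siRNA (log2 fold change -0.21 with SE 0.080, edgeR adjusted p = 0.101). HNRNPA2B1, the most abundant member per length, stood at 1809, 1782 and 1886 CPM in controls and at 1686, 1634 and 1654 CPM after lncSLCC1 siRNA. Its groups did not overlap, at a log2 fold change of -0.14 with SE 0.071 (edgeR adjusted p = 0.209). HNRNPK, a KH-domain protein, stood at 929, 975 and 902 CPM in controls and at 848, 849 and 878 CPM after lncSLCC1 siRNA (log2 fold change -0.12 with SE 0.071, edgeR adjusted p = 0.263). HNRNPM and HNRNPU had overlapping groups and log2 fold changes of -0.021 and -0.017, with confidence intervals of -0.21 to 0.17 and -0.23 to 0.19. The remaining hnRNPs, HNRNPC, HNRNPD, HNRNPDL, HNRNPL, HNRNPLL, HNRNPR, HNRNPUL1 and HNRNPUL2, ranged from -0.17 for HNRNPUL2 to 0.056 for HNRNPDL.

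None of the 4 CLK kinases passed the test, and all 4 had negative log2 fold changes, with a median of -0.22. At an unadjusted p under 0.05 by edgeR there were 2, CLK1 and CLK4, where 31.6% of all tested genes passed that level and 16.3% were lower. DESeq2 and limma-voom called 0 of the 4. CLK1, whose own splicing is controlled by its kinase activity, stood at 72.1, 94.0 and 87.9 CPM in controls and at 70.4, 71.7 and 71.5 CPM after lncSLCC1 siRNA (log2 fold change -0.25 with SE 0.105, edgeR adjusted p = 0.134). CLK4, its close relative, stood at 21.3, 25.4 and 22.0 CPM in controls and at 18.3, 18.6 and 19.1 CPM after lncSLCC1 siRNA (log2 fold change -0.29 with SE 0.109, edgeR adjusted p = 0.1). Control replicate 1 was the lowest control for both and nearly reached the lncSLCC1 siRNA libraries for CLK1. Without it both passed the test, at -0.35 for CLK1 (adjusted p = 0.000155) and -0.34 for CLK4 (adjusted p = 0.00949), both by edgeR, while the share of all genes called lower went from 7.39% to 15.5%. Without control replicate 2 the values were -0.17 for CLK1 (edgeR adjusted p = 0.367) and -0.22 for CLK4 (0.283). With any of the other 4 libraries left out neither was called.

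CLK3 stood at 114, 97.1 and 91.9 CPM in controls and at 89.9, 85.9 and 88.7 CPM after lncSLCC1 siRNA (log2 fold change -0.19 with SE 0.095, edgeR adjusted p = 0.191). CLK2 stood at 91.8, 79.1 and 77.6 CPM in controls and at 86.9, 74.6 and 76.0 CPM after lncSLCC1 siRNA (log2 fold change -0.065 with SE 0.100, edgeR adjusted p = 0.689). CLK2 had overlapping groups, and it was slightly positive with library totals (0.0063), without control replicate 1 (0.014) and with the GC and length offsets (0.021). Per length in controls, CLK1, CLK3 and CLK2 stood at 41.8, 38.5 and 38.3 RPKM and CLK4 at 8.91. The first 3 of these levels lay within the spread between controls.

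**Figure D3:**
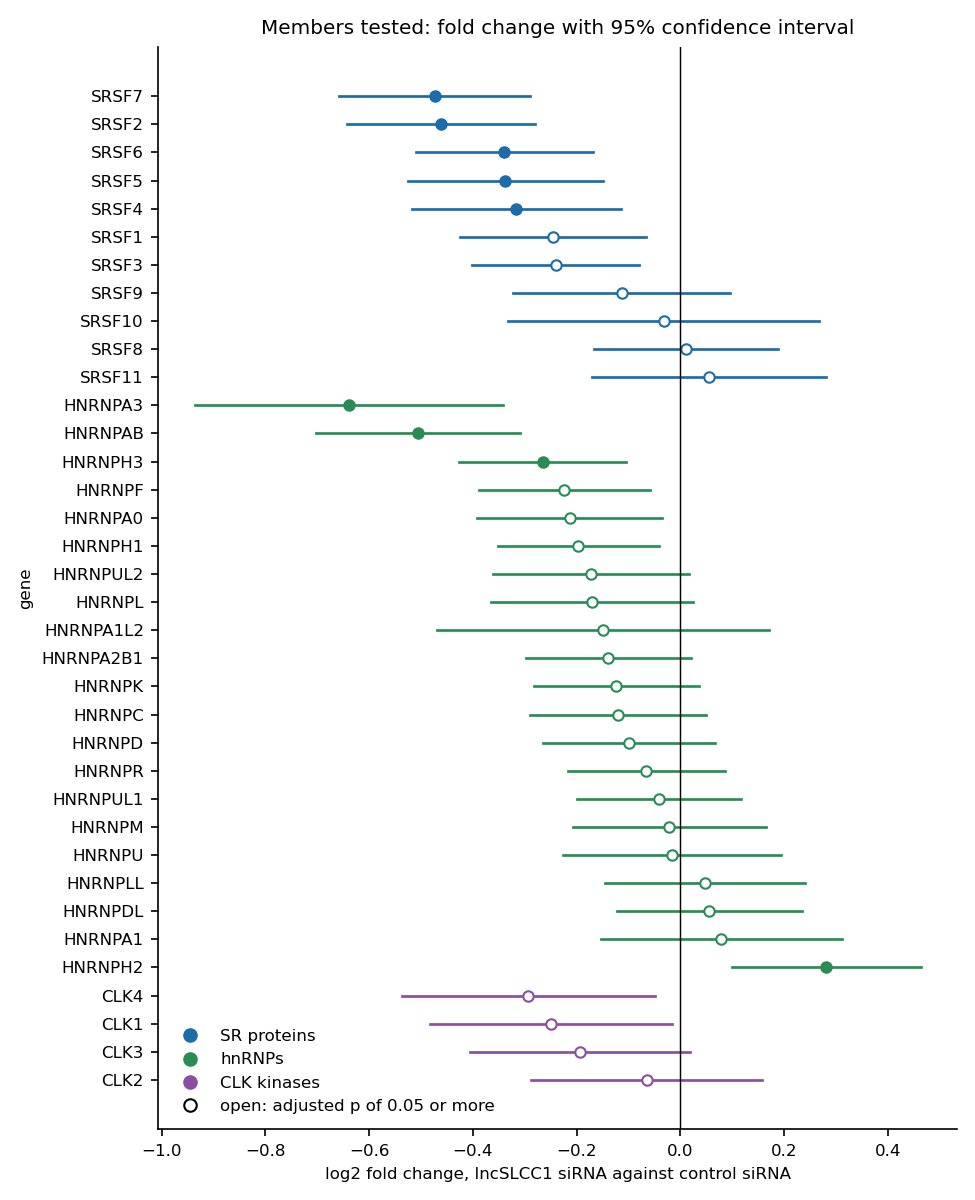
Log2 fold change (horizontal axis, lncSLCC1 siRNA against control siRNA) with its 95% confidence interval for each of the 36 tested members, coloured by family; filled points passed the test and open points did not. SRSF7 to SRSF4, HNRNPA3, HNRNPAB and HNRNPH3 lie to the left of 0 and HNRNPH2 to the right.

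Summed over the family, SR protein reads took 2961, 3037 and 2968 CPM in controls and 2541, 2465 and 2547 CPM after lncSLCC1 siRNA, or 84.2% of the control mean. The hnRNP sum went from 10089, 10097 and 10111 CPM to 9231, 9103 and 9163 CPM, or 90.8%. The CLK sum went from 299, 296 and 279 CPM to 266, 251 and 255 CPM, or 88.3%. In each family the sums of the groups did not overlap, although single members scattered among controls, some with control replicate 1 high and others with it low. These sums are dominated by abundant members and carry no test. They leave out pseudogene rows, and the parent row held only 18.2% to 26.8% of the summed reads for HNRNPA1 and 37.4% to 50.1% for HNRNPA3.

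Calls depended on single libraries. Of the 9 members called, 9 kept their call without control replicate 1 or 3, 3 did without control replicate 2, and 2, 0 and 1 did with lncSLCC1 siRNA replicate 1, 2 or 3 left out. SR proteins called lower numbered 8 without control replicate 1, 2 without control replicate 2, and 1, 0 and 1 with lncSLCC1 siRNA replicate 1, 2 or 3 left out. hnRNPs called lower numbered 8, 1 and 5 when control replicate 1, 2 or 3 was dropped, and 1, 0 and 0 when lncSLCC1 siRNA replicate 1, 2 or 3 was. Over all tested genes the share called lower moved with them, at 15.5%, 2.26% and 13.4% for the same control omissions and between 1.56% and 2.04% for the lncSLCC1 siRNA ones. Over 15 alternatives SRSF7 stayed between -0.54 and -0.40, SRSF2 between -0.52 and -0.39 and HNRNPAB between -0.58 and -0.41.

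**Figure D4:**
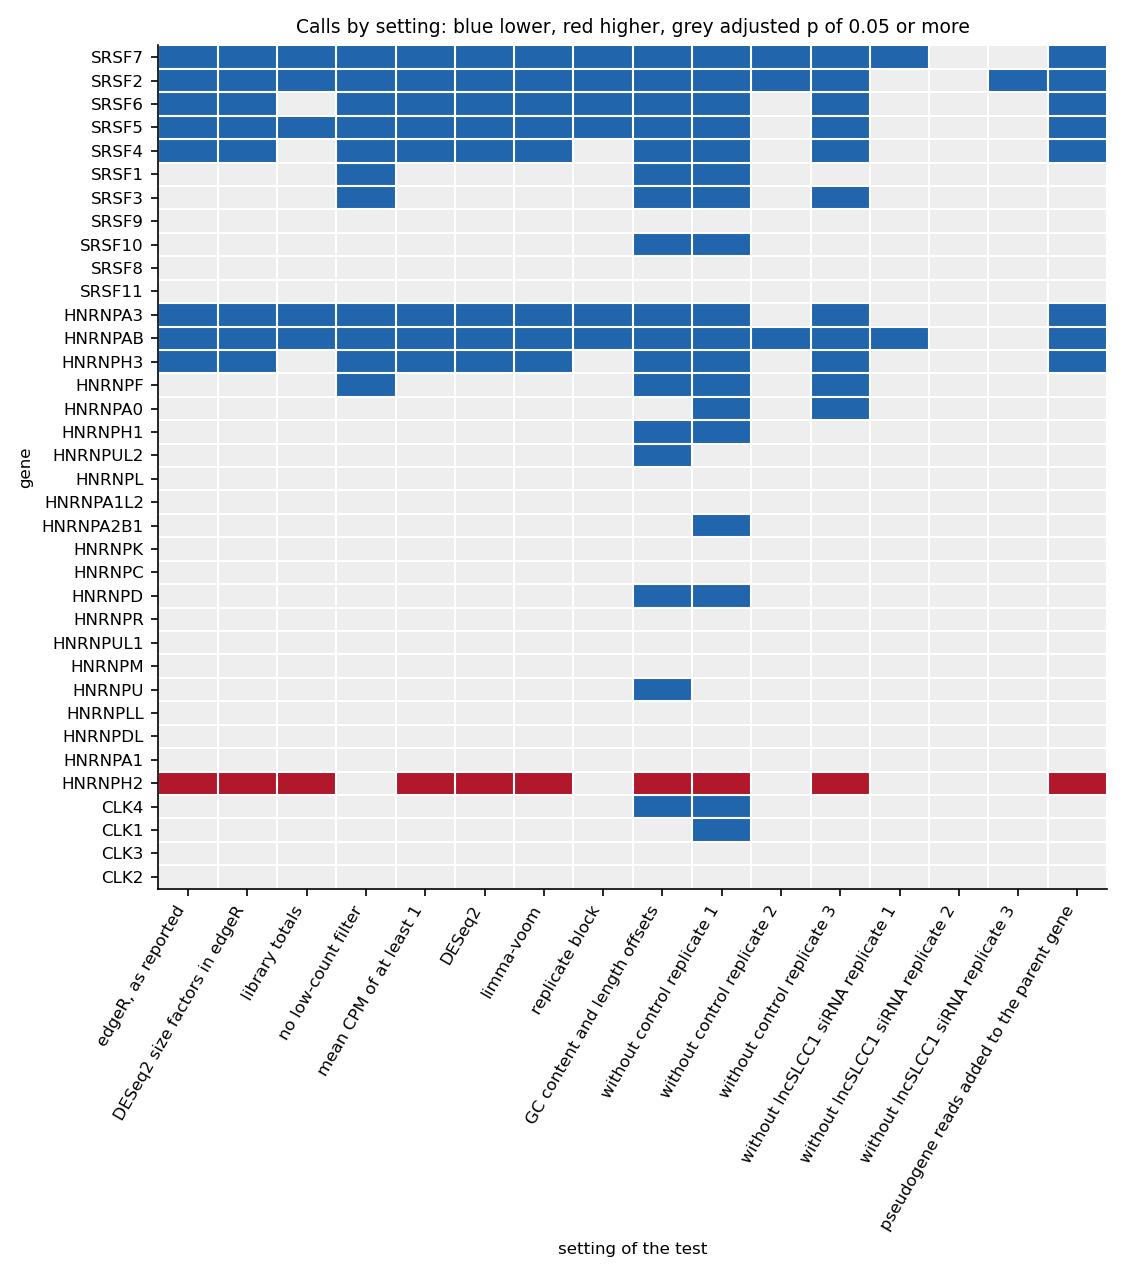
Calls of the 36 tested members (vertical axis) under the reported test and 15 alternatives (horizontal axis), with blue for lower, red for higher and grey for an adjusted p of 0.05 or more. Each member called in the reported test is called in most columns, and SRSF7, SRSF2 and HNRNPAB in the largest number. The columns without a lncSLCC1 siRNA library hold 0 to 2 calls.

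Annotation shows what the families share beyond their names. In GENCODE release 29 all 12 SR protein genes have at least 1 transcript annotated as subject to nonsense-mediated decay, as do 13 of 22 hnRNP genes and 3 of 4 CLK genes, against 43.5% of 12420 tested protein-coding genes. SRSF7 has 6 such transcripts, the most of any SR protein gene. The called hnRNPs, HNRNPA3, HNRNPAB, HNRNPH3 and HNRNPH2, have 0 such transcripts annotated. So do HNRNPA0, HNRNPA1L2, HNRNPF and HNRNPUL2, which were not called, and HNRNPCL1, which was not tested. All called SR protein genes have at least 1. The share over tested protein-coding genes was not matched to the members in expression or number of annotated transcripts. A fall in a gene count could not be assigned to coding or decay-bound transcripts in these files.

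Promoter sequences from RefSeq (GRCh38.p14, 250 bases before to 50 after the start) were searched for CACGTG, the E-box bound by MYC and MAX, which reads the same on both strands. It was in 7 of 21 hnRNP promoters, 2 of 4 CLK promoters and 0 of 11 SR protein promoters, against 7.3% of 35116 promoters of the same length. Shares over all promoters, here and below, were not matched to the members in expression or GC content, and no enrichment was tested. Promoters with CACGTG included those of HNRNPD, HNRNPDL, HNRNPM, HNRNPUL1, CLK2 and CLK4, none of which was called. Stretches around the motif, in capitals, are shown only for the called members HNRNPA3 and HNRNPH3, which fell, and HNRNPH2, which rose.
HNRNPA3, chr2:177212711-177212740, plus strand: cggaaaacgcgtCACGTGacgactggcccc
HNRNPH3, chr10:68331631-68331660, plus strand: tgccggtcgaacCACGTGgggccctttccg
HNRNPH2, chrX:101408168-101408197, plus strand: ccgagagttgctCACGTGaccgagatctca
HNRNPH2, chrX:101408201-101408230, plus strand: gacgtaggcgctCACGTGattactcgctta
The promoter of HNRNPAB, which fell, holds no match, and HNRNPH2, which rose, holds 2. Other motifs searched on both strands were the GC box GGGCGG (16 hnRNP, 5 SR and 3 CLK promoters, 45.0% of all), CCAAT (14, 2 and 1, 34.6% of all) and TATAAA (3, 2 and 0, 11.5% of all). A match describes these letters only. HNRNPA1 and SRSF2 were not in the promoter table.

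Genes that act with the members were read from the same fit, in which 13.8% of all tested genes were called, 7.39% lower and 6.46% higher. In the list of SR kinases, phosphatases and import factors, 2 of 13 were called, both higher (median log2 fold change 0.023). SRPK2, a kinase that phosphorylates SR proteins in the cytoplasm, stood at 36.1, 41.3 and 48.0 CPM in controls and at 62.8, 56.1 and 57.7 CPM after lncSLCC1 siRNA (log2 fold change 0.49 with SE 0.115, edgeR adjusted p = 0.0222). TNPO3, the transportin that carries phosphorylated SR proteins into the nucleus, rose from 140 ± 5.88 to 174 ± 6.66 CPM (SD over 3 libraries each), a log2 fold change of 0.31 with SE 0.076, edgeR adjusted p = 0.0261. SRPK1, the other widely expressed kinase of this kind, had overlapping groups and a log2 fold change of 0.023 (SE 0.132).

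Of 21 tested SR-related genes 3 were called, all lower (median -0.067), a share close to the 13.8% of all tested genes called in either direction; 7.39% of all tested genes were lower. SCAF4, which binds the tail of RNA polymerase II, fell from 101 ± 2.00 to 67.8 ± 1.24 CPM (SD over 3 libraries each), a log2 fold change of -0.57 with SE 0.076, edgeR adjusted p = 0.00209. PNN and RBM39, both factors of nuclear speckles, fell by 0.46 (SE 0.079) and 0.30 (SE 0.077) on the log2 scale. RBM39 lost its call with library totals (edgeR adjusted p = 0.075). Of 18 hnRNPs and partners listed under other names 3 were called, all lower (median -0.13). PTBP1, also known as hnRNP I, stood at 805, 726 and 722 CPM in controls and at 602, 581 and 576 CPM after lncSLCC1 siRNA (log2 fold change -0.36 with SE 0.076, edgeR adjusted p = 0.0156). ELAVL1, the mRNA-stabilising protein HuR, fell by 0.25 (SE 0.074) on the log2 scale. ELAVL1 lost its call by DESeq2 (adjusted p = 0.051), by limma-voom (0.0513) and, in edgeR, when scaled by library totals (0.0808), unfiltered (0.0526) or filtered at a mean CPM of at least 1 (0.0514). Among 32 tested snRNP subunits of the spliceosome 2 were called, both lower (median -0.17), against 13.8% of all tested genes called. SNRPA of the U1 particle fell by 0.50 (SE 0.134) and SNRPD1 of the Sm ring by 0.46 (SE 0.120) on the log2 scale. SNRPA lost its call with library totals (edgeR adjusted p = 0.0512).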

How the data were processed

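The authors deposited raw read counts per gene symbol, one table per library. TopHat2 version 2.0.11, HTSeq and the builds hg19 and GRCh37 are named, per the submitters' processing notes; strand setting and annotation release are unknown here. HTSeq's summary lines (28.8% to 29.4% of each table's total) were left out. Within them, reads outside any gene made up 5.42% in control replicate 1 and 6.27% to 7.58% in the other libraries. Reads that fell on more than 1 gene made up 10.1% in control replicate 1 and 8.83% to 9.34% in the others. Reads aligned to more than 1 place made up 13.8% in control replicate 1 and 12.8% to 13.2% in the others. Groups came from sample titles. Library depth was 12572277 to 15568075 gene reads.

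Groups were compared in R 4.3.3 with the quasi-likelihood test of edgeR 4.0.16 over all genes, with TMM library sizes, the default filter and no covariate; p-values were Benjamini-Hochberg adjusted over 15242 genes. CPM used TMM library sizes. Standard errors were derived from the fold change and F statistic. Fits were tested on simulated data, in which 28% of 50 genes with a 1.3-fold change were called. The share was 68% at 1.5-fold and 100% at 2-fold. The simulation also gave 11 false calls among 15026 tested genes. A member without a call may therefore still have changed, even by 1.5-fold. Alternatives used DESeq2 1.42.0, limma 3.58.1, other scalings and filters, GC content and length offsets, a replicate block and each library left out. Lengths and GC content came from the longest transcript in GENCODE release 29, matched by symbol for 38 of 38 members and 89.4% of tested genes; no coordinates of the files' build are given.

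Members and gene lists were chosen with earlier results of these data known. Named were the 4 CLK kinases, every called member, the 3 most abundant members per length and the 3 largest uncalled changes in each of the SR and hnRNP families, up to 4 called genes per list, and the targeted RNA. Other members and neighbours named were chosen after their values were seen. Some genes and sequences that these rules cover are not reported here.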

Additional observations from a re-analysis of the deposited data

How the results depend on the processing

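Over 15 alternatives for each of 36 members, 454 of 540 values kept their direction and side of the threshold, 37 lost a call, 25 gained one and 24 reversed, none of the reversed being a called member. With library totals, where the median of all genes moved from 0.0072 to 0.077, SR proteins called lower went from 5 to 3 and the medians of SR proteins, hnRNPs and CLK kinases were -0.18, -0.054 and -0.15. With GC content and length offsets, 8 SR proteins, 8 hnRNPs and 1 CLK kinase were lower, at medians of -0.31, -0.18 and -0.17; over all genes 1871 were then higher and 2356 lower, against 984 and 1126. The HNRNPH2 rise was lost with no low-count filter (0 hnRNPs higher; adjusted p = 0.0508 by edgeR) and with the replicate block. Adding pseudogene reads to the parent gene gave an hnRNP median of -0.13.

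Leaving out 1 library at a time gave 0 to 8 SR proteins lower, 0 to 8 hnRNPs lower, 0 to 1 hnRNP higher and 0 to 2 CLK kinases lower. The hnRNP median then ran from -0.15 to -0.11. With 2 libraries in a group, the reduced sample number is part of each such setting. Of the 14 calls in the gene lists, 9 were kept with library totals, 2 without control replicate 2 and 2, 1 and 1 with lncSLCC1 siRNA replicate 1, 2 or 3 left out.

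Same-numbered libraries did not deviate together (correlations of 0.094, 0.001 and -0.016 for replicates 1, 2 and 3), so numbers were not taken as pairs. The largest value of any pair was 0.102, between control replicate 3 and lncSLCC1 siRNA replicate 2. Replicate numbers here and in the block below are those of the titles, and the deposited names of the counts carry other numbers. Which libraries were handled together is therefore unknown. With the replicate number as a block, 0 hnRNPs were higher, SRSF4 (adjusted p = 0.0517), HNRNPH3 (0.0744) and HNRNPH2 (0.0652) lost their calls, and 6 of 9 were kept. Of the 14 list calls 11 were kept, with RBM39 (0.0528), ELAVL1 (0.079) and MAGOHB (0.0675) lost.

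Signs also turned among members without a call. With library totals the values were 0.0063 for CLK2, 0.051 for HNRNPM, 0.0037 for HNRNPR, 0.049 for HNRNPU, 0.028 for HNRNPUL1, 0.032 for SRSF10 and 0.014 for HNRNPA1P48. With GC content and length offsets they were 0.021 for CLK2, -0.096 for HNRNPLL, 0.047 for HNRNPM, -0.074 for SRSF11, -0.056 for SRSF8 and 0.0078 for SRSF9. With pseudogene reads added HNRNPA1 was -0.035. With 1 library left out, the ranges were -0.14 to 0.014 for CLK2, -0.034 to 0.15 for HNRNPA1, -0.29 to 0.015 for HNRNPA1L2, -0.0062 to 0.10 for HNRNPDL, -0.066 to 0.059 for HNRNPM, -0.11 to 0.054 for HNRNPU, -0.19 to 0.099 for SRSF10, -0.056 to 0.12 for SRSF11, -0.016 to 0.028 for SRSF8, -0.17 to 0.0063 for HNRNPA1P10 and -0.12 to 0.055 for HNRNPA1P48. For all changes of sign or call the cause was not tested.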

Other observations

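Splicing regulators that mark cell types were mostly without a call. Of 15 listed 10 were tested and 1 fell (median log2 fold change 0.11), where 13.8% of all tested genes were called and 7.39% were lower. ESRP2, an epithelial splicing regulator, stood at 308, 275 and 285 CPM in controls and at 234, 225 and 231 CPM after lncSLCC1 siRNA (log2 fold change -0.33 with SE 0.075, edgeR adjusted p = 0.0197). Its relative ESRP1 had overlapping groups and a log2 fold change of 0.10 with SE 0.118. RBM47, MBNL1 and MBNL3 had all lncSLCC1 siRNA libraries above all controls, at 0.27, 0.47 and 0.61 on the log2 scale, and were not called (edgeR adjusted p = 0.0884, 0.0989 and 0.0798).

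In the list of nonsense-mediated decay and exon junction genes 3 of 15 were called, all lower (median -0.16), against 13.8% of all tested genes called and 7.39% lower. RBM8A and MAGOHB, which encode partners in the exon junction complex, fell by 0.44 (SE 0.113) and 0.36 (SE 0.103) on the log2 scale. MAGOHB rests on 257 to 424 reads per library and lost its call with library totals (adjusted p = 0.0767 by edgeR) and with no low-count filter (0.0591), and RBM8A did with library totals (adjusted p = 0.0685 by edgeR).

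HNRNPKP4, a pseudogene row that shares 15.9% of its 50-base words with HNRNPK, stood below 11.5 CPM in every control and between 11.5 and 14.5 CPM after lncSLCC1 siRNA. Its groups did not overlap, and its log2 fold change of 0.70 (SE 0.207) missed the threshold (adjusted p = 0.0512 by edgeR), while HNRNPK itself was -0.12. It passed the test in 8 of 14 alternatives, DESeq2 among them (adjusted p = 0.0187), and its range over them was 0.49 to 0.96.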
